A study of Brassica napus with 33 samples.

Results

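The 7827 small RNA (sRNA) clusters of chromosomes A01 and C01 were described along both chromosomes, in the parents and hybrids of a cross of oilseed rape (Brassica napus). An sRNA cluster is a stretch of the Express617 genome assembly on which sRNA reads accumulate. Clusters were chosen by their position alone, namely those that the cluster table places on A01 or C01. A01 held 3246 clusters and C01 held 4581, which is 3.56% and 5.03% of the 91060 clusters with a position. Positions refer to the Express617 assembly throughout. The table gives no gene or miRNA name to a cluster, so members are called by their cluster number and position.

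In the study, G3D001 was crossed as pollen parent to Express617. G3D001 is a semi-winter inbred line of semi-synthetic origin, and Express617, the seed parent, is a winter-type inbred line. The F1 is their hybrid, represented by its leaves and by ovules of F1 plants after selfing. The F0 is the set of Express617 ovules after pollination by G3D001, which would develop into F1 plants. Leaves of G3D001, F1 and Express617 were taken at the stage of 6 unfolded leaves (BBCH16), with no F0 leaves. Ovules of G3D001, F1, F0 and Express617 were taken 15 days (OS15) and 30 days (OS30) after the flowers were pollinated. Plants stood in a potting field. Each combination had 3 replicates, and all 33 libraries were used. A leaf replicate was a pool of leaves from 7 plants, and an ovule replicate a pool of 4 ovules from different plants. An ovule holds maternal seed tissue beside the offspring's embryo and endosperm, so an ovule library mixes generations. In such bulk samples, fewer cells of one type and less RNA per cell cannot be told apart. As no cluster carries a gene name, the labelled tissues could not be checked against marker genes.

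Brassica napus is an allotetraploid that carries an A subgenome, derived from Brassica rapa, and a C subgenome, derived from Brassica oleracea. A01 and C01 are homoeologs, that is, related chromosomes from these subgenomes. Plant sRNAs comprise miRNAs, which act on messenger RNAs, and small interfering RNAs (siRNAs), which mostly arise from transposons and repeats and guide DNA methylation to the sequence they match. In seeds, siRNA clusters of very high abundance are known from maternal tissue and endosperm of Arabidopsis and Brassica.

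The libraries held 12635700 to 27070031 counts each. A01 took 0.508% to 0.674% of these counts in leaves, 3.01% to 4.04% at OS15 and 2.88% to 3.53% at OS30. C01 took 1.41% to 2.01%, 2.13% to 3.45% and 2.68% to 3.77% at the same stages. Levels are given as CPM, the count of a cluster scaled to a common library size. TMM factors were computed within each stage and entered this size, which sets the bulk of clusters equal between libraries of a stage. At OS30 the factors were 0.336 to 0.383 in G3D001 and 1.21 to 1.49 in the other libraries. With scaling by total counts instead, the median over all clusters of the log2 fold change of G3D001 over Express617 at OS30 was -2.02, against -0.01 with TMM. Changes at OS30 are therefore relative to the bulk of clusters, and the direction of single clusters at OS30 depends on this choice where stated.

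Clusters were about as dense on A01 as on C01, with 108 and 104 clusters per Mb, and their median lengths were 695 bp and 759 bp. They covered 10.6% of A01 and 11.2% of C01. A 500 kb bin held 26 to 99 clusters on A01 and 1 to 79 on C01, with a median of 54 on each. Reads were less even than clusters. In leaves, the 3 clusters with the most reads held 61.1% of the summed CPM of C01 in G3D001, 55.9% in F1 and 68.2% in Express617. At OS30 they held 36.7% in G3D001, but 20.3% in F1, 17.0% in F0 and 18.2% in Express617. In CPM, the typical cluster was low in leaves and at OS15 and higher at OS30. Stages were not scaled to one another, and scaling within a stage draws the medians of the genotypes together. The median cluster of C01 had 0.27 CPM in G3D001, 0.39 CPM in F1 and 0.36 CPM in Express617 in leaves, and 1.91 CPM, 2.04 CPM and 1.99 CPM in these genotypes at OS30. Statements on single clusters therefore rest on few reads in leaves and at OS15. At least 10 counts in each library were reached by 787 clusters of C01 in G3D001 leaves, 1381 in F1 leaves and 884 in Express617 leaves.

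The most abundant clusters set the summed signal. On C01, Cluster_34691, which spans 12713 bp from 24003328 to 24016040, was the main leaf cluster. It had 6410, 7500 and 7768 CPM in G3D001 leaves, 6441, 4955 and 4709 CPM in F1 leaves, and 9566, 10700 and 9961 CPM in Express617 leaves. Express617 lay above both other genotypes without overlap. With edgeR's quasi-likelihood test, the log2 fold change was -0.48 ± 0.15 (SE) for G3D001 over Express617 (adjusted p = 0.015) and -0.91 ± 0.15 for F1 over Express617 (adjusted p = 1.2e-05). With total-count scaling neither passed the threshold (log2 fold changes -0.23 and -0.33, edgeR adjusted p = 0.23 and 0.0718). The G3D001 call was also lost with DESeq2 (adjusted p = 0.0808) and, in edgeR, without G3D001 replicate 1 (adjusted p = 0.107) or Express617 replicate 2 (adjusted p = 0.0722). Cluster_32059 at 191245 to 191349, only 105 bp long, came next in abundance. It had 1803, 1069 and 2226 CPM in G3D001 leaves, 2000, 1051 and 1184 CPM in F1 leaves, and 5628, 4669 and 1486 CPM in Express617 leaves. Express617 replicate 3 lay within the range of G3D001, although the edgeR test called the difference (log2 fold change -1.21 ± 0.24, adjusted p = 0.00011).

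Cluster_36052 at 38233648 to 38234577 on C01 was an ovule cluster of G3D001 and F1. At OS15 it had 1083.7, 1929 and 2010 CPM in G3D001, 2157, 1989 and 1854 CPM in F1, 149.6, 124.3 and 179 CPM in F0, and 142.1, 124.1 and 165.4 CPM in Express617. The F1 thus stood with G3D001 and the F0 with Express617, with no overlap between the pairs. The log2 fold change over Express617 was 3.54 ± 0.20 in G3D001 (edgeR adjusted p = 1.7e-16), 3.797 ± 0.20 in F1 (edgeR adjusted p = 8.3e-17) and 0.05 ± 0.20 in F0 (edgeR adjusted p = 1). At OS30 the cluster had 10490, 10810 and 10490 CPM in G3D001, 1008, 1021 and 1278 CPM in F1, 152.4, 114.5 and 151 CPM in F0, and 174, 104.3 and 141.9 CPM in Express617. In all leaf libraries it was at most 0.15 CPM.

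On A01, the 3 most abundant clusters were seed clusters shared by all genotypes. Cluster_3069 at 27678746 to 27681589 had 6195, 4020 and 4925 CPM in G3D001, 6469, 5525 and 5702 CPM in F1, 4867, 7065 and 5090 CPM in F0, and 4707, 6105 and 4969 CPM in Express617 at OS15. All genotypes overlapped, and no comparison with Express617 passed the edgeR test at this stage. Cluster_3072, which lies close by at 27698269 to 27700478, and Cluster_360 at 3943609 to 3945042 had 3160 to 5363 CPM and 2107 to 2608 CPM in G3D001 at OS15, against 2898 to 4343 CPM and 2545 to 3131 CPM in Express617. Neither differed in the edgeR test at OS15 (adjusted p = 0.29 and 0.38), although Cluster_3072 passed it without G3D001 replicate 2 (log2 fold change 0.45, adjusted p = 0.00957). At OS30 all 3 clusters were higher in G3D001 than in Express617, with log2 fold changes of 3.14, 2.97 and 2.67, relative to the bulk of clusters. In leaves the 3 clusters had at most 0.70 CPM in every library.

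The first question was whether whole chromosomes differed in level. For each library, the level is the median over clusters of log2(CPM + 0.5) relative to the stage mean, minus the same median over the genome without A02 and C02, and it is given relative to the mean of Express617. A cluster entered it if its mean count in the stage was 20 or more. The levels of A01 in leaves were 0.11 to 0.15 in G3D001, 0.06 to 0.08 in F1 and -0.01 to 0.02 in Express617. At OS15 they were -0.15 to 0.02 in G3D001, -0.11 to -0.03 in F1, -0.05 to 0.02 in F0 and -0.04 to 0.04 in Express617. At OS30 they were -0.14 to -0.09 in G3D001, -0.11 to -0.08 in F1, -0.08 to -0.03 in F0 and -0.05 to 0.04 in Express617. A01 of G3D001 and of F1 lay above Express617 in leaves and below it at OS30, both without overlap. Averaged over the 3 stages, the difference from Express617 was -0.02 for G3D001 (exact permutation test within stages, two-sided, p = 0.6155), -0.04 for F1 (exact permutation test, p = 0.16425) and -0.04 for F0 over the ovule stages (exact permutation test, p = 0.125). These values depended on the settings. Without a count minimum the differences of G3D001 and F1 passed the threshold (-0.0499 and -0.0427, exact permutation test, p = 0.022 and 0.002), and with the replicate number as a block that of F0 did (exact permutation test, p = 0.03125). The sign turned for G3D001 with summed CPM (0.02) and for F1 without centring on the rest of the genome (0.0148).

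C01 of G3D001 was slightly lower than that of Express617. Its levels were -0.19 to -0.05 in G3D001, 0.04 to 0.05 in F1 and -0.06 to 0.05 in Express617 in leaves. At OS15 they were -0.16 to 0.03 in G3D001, 0.02 to 0.06 in F1, -0.06 to 0.08 in F0 and -0.05 to 0.08 in Express617. At OS30 they were -0.10 to -0.05 in G3D001, 0.03 to 0.04 in F1, -0.04 to -0.00097 in F0 and -0.05 to 0.06 in Express617. Of the 9 G3D001 libraries, 6 lay below all Express617 libraries of their stage. The mean difference over stages was -0.08 for G3D001 (exact permutation test, two-sided, p = 0.016), 0.04 for F1 (exact permutation test, p = 0.06025) and -0.01 for F0 (exact permutation test, p = 0.725). The G3D001 call was lost with the replicate number as a block (-0.08, exact permutation test, p = 0.0664), when a mean count of 50 or more was required (-0.05, exact permutation test, p = 0.194), and when summed CPM replaced the median (-0.15, exact permutation test, p = 0.112). The F1 difference passed the threshold without Express617 replicate 1 of any one stage (0.05 to 0.06, exact permutation test, p = 0.0095 to 0.02425).

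**Figure D1:**
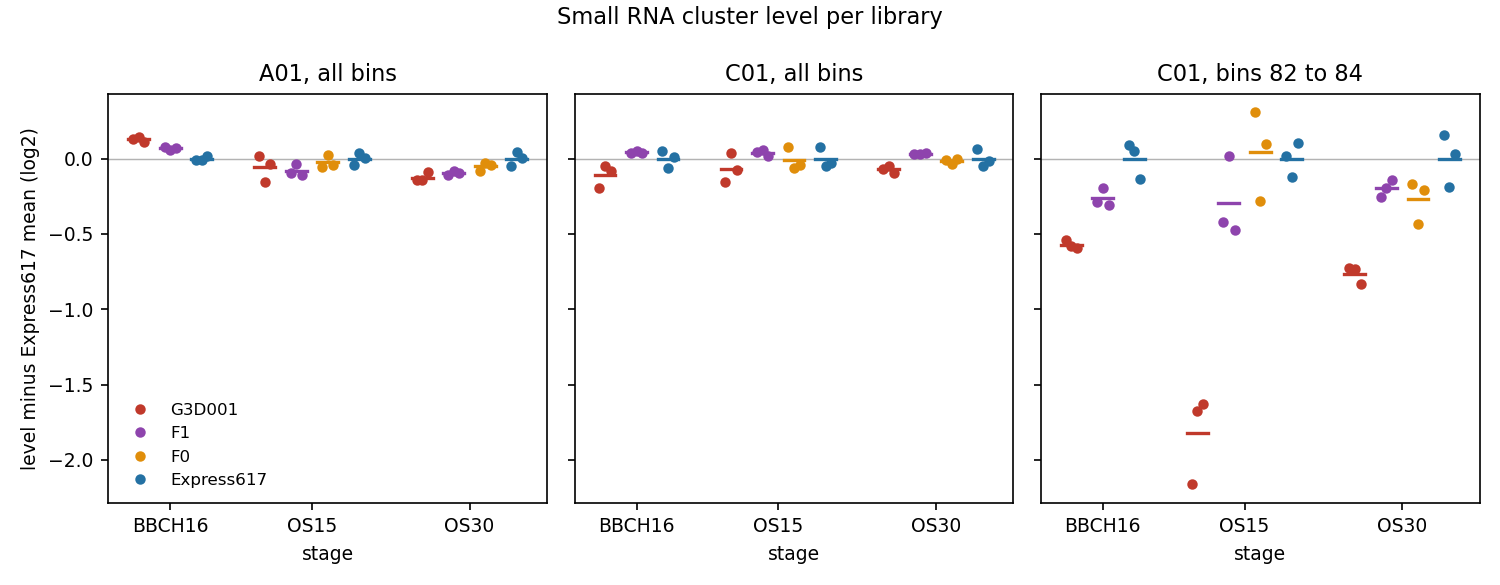
Level of A01, of C01 and of the C01 bins 82 to 84 in each library (points) relative to the mean of Express617 (log2), with bars at the group means; stages run along the horizontal axis and colours mark the genotypes. In the right panel the G3D001 points lie between -2.16 and -0.54, below all Express617 points of their stage, while the points of whole chromosomes lie between -0.19 and 0.15.

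The parents were then compared cluster by cluster. With edgeR's quasi-likelihood test over all clusters, G3D001 differed from Express617 in leaves in 543 of 3193 clusters of A01 (17.0%) and 731 of 4530 of C01 (16.1%), against 16.5% of all clusters tested. Of those on A01, 219 were higher and 324 lower in G3D001, and of those on C01 215 were higher and 516 lower, against 6.02% of all clusters that were higher and 10.5% that were lower. The lower share on C01 was 11.4%. With total-count scaling, A01 had 323 higher and 252 lower clusters and C01 308 and 409. At OS15, 593 clusters of A01 (258 higher, 335 lower) and 756 of C01 (312 higher, 444 lower) were called, or 18.3% and 16.5%, against 17.9% of all clusters (8.15% higher, 9.75% lower).

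At OS30 most clusters were called. G3D001 differed from Express617 in 1991 of 3246 clusters of A01 (61.3%) and 2572 of 4581 of C01 (56.1%), against 59.7% of all clusters (30.9% higher, 28.8% lower). On A01 931 were higher and 1060 lower in G3D001, and on C01 1217 were higher and 1355 lower. With total-count scaling, 158 were higher and 2599 lower on A01, and 218 and 3811 on C01. The numbers called on both chromosomes were thus near the background at each stage, and the split of directions at OS30 rests on the scaling.

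The hybrids differed from Express617 in fewer clusters. The F1 differed in 134 clusters of A01 and 190 of C01 in leaves (4.20% and 4.19%, against 4.37% of all clusters, 2.32% higher and 2.05% lower), in 190 and 249 at OS15 (5.86% and 5.44%, against 6.25%, 4.55% higher and 1.7% lower), and in 629 and 877 at OS30 (19.4% and 19.1%, against 19%, 9.97% higher and 9.07% lower). At OS15, 122 of the A01 calls and 192 of the C01 calls were higher in F1, which became 85 higher and 143 lower on A01 and 139 and 137 on C01 with total-count scaling. In leaves 68 were higher and 66 lower on A01 and 115 and 75 on C01, with 369 higher and 21 lower on A01 and 529 and 25 on C01 under total-count scaling, and with 60 and 87 on A01 and 96 and 95 on C01 under RLE size factors. At OS30 A01 had 226 higher and 403 lower clusters and C01 512 and 365, with 148 and 533 and with 359 and 486 under total-count scaling. The leaf count of both chromosomes together, 324, was 198 without F1 replicate 2, 198 without F1 replicate 3 and 205 without Express617 replicate 2. The OS30 count of 1506 was 909 without F1 replicate 1, 948 without F1 replicate 2 and 923 without Express617 replicate 2.

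The F0 at OS15 was called different from Express617 in 0 clusters of A01 and 0 of C01 by edgeR, against 0.0132% of all clusters. DESeq2 also called 0, and at an unadjusted p under 0.05 edgeR gave 114 clusters on A01 (3.52%) and 160 on C01 (3.50%), against 4.04% of all clusters. With the replicate number as a block, 2 clusters of both chromosomes together were called. Without G3D001 replicate 2, which enters the shared estimate of the spread, 5 were called. At OS30 the F0 differed in 131 clusters of A01 (59 higher, 72 lower) and 253 of C01 (156 higher, 97 lower), or 4.04% and 5.52%, against 4.58% of all clusters (2.76% higher, 1.82% lower). The sum of 384 depended on single libraries. It was 631 without F0 replicate 1, but 146 and 161 without F0 replicates 2 and 3, and 164, 139 and 154 without Express617 replicates 1, 2 and 3.

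The single clusters named next were picked by their smallest adjusted p, which favours large differences. Most of them were present in one parent and near absent in the other. On A01, Cluster_348 at 3869388 to 3870894 was a seed cluster of Express617. At OS15 it had 0.57, 0.56 and 0.55 CPM in G3D001, 331.7, 271.3 and 321.5 CPM in F1, 494.8, 584.2 and 459.4 CPM in F0, and 417.2, 519 and 394.5 CPM in Express617. G3D001 was far below all other libraries, and the F1 lay below Express617 and F0 without overlap. The log2 fold change of G3D001 over Express617 was -9.61 ± 0.28 at OS15 (edgeR adjusted p = 1.4e-24) and -6.19 ± 0.31 at OS30 (edgeR adjusted p = 2.9e-10). The F1 change at OS15 of -0.53 ± 0.19 did not pass the test (edgeR adjusted p = 0.1), but did without G3D001 replicate 2 (adjusted p = 0.0109), with DESeq2 (adjusted p = 0.0328), with total-count scaling (adjusted p = 0.00208) and with a filter of 10 counts in 3 libraries (edgeR adjusted p = 0.0331).

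Cluster_1078 on A01, of 84 bp at 10522535 to 10522618, went the other way at every stage. In leaves it had 73.27, 50.82 and 51.11 CPM in G3D001, 27.79, 23.35 and 24.98 CPM in F1, and 4.95, 4.01 and 6.31 CPM in Express617. At OS30 it had 7291, 4697 and 8284 CPM in G3D001, 731.2, 635.7 and 997.1 CPM in F1, 310.2, 362.5 and 346.8 CPM in F0, and 82.54, 94.03 and 121.7 CPM in Express617. The 4 genotypes did not overlap and ran in the order G3D001, F1, F0, Express617. Log2 fold changes of G3D001 over Express617 were 3.52 ± 0.27 in leaves, 3.12 ± 0.23 at OS15 and 6.09 ± 0.29 at OS30 (edgeR adjusted p = 3.2e-16, 2.8e-13 and 2e-10). The F0 differed from Express617 in this cluster as well (log2 fold change 1.78 ± 0.21 at OS30, edgeR adjusted p = 0.00019).

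Other clusters of A01 were also much lower in 1 parent. Cluster_3198 at 29077716 to 29078435 had 342.1, 200.2 and 298.3 CPM in G3D001 at OS15, 120.4, 106.1 and 112.9 CPM in F1, 2.25, 3.60 and 3.73 CPM in F0, and 3.29, 3.50 and 2.64 CPM in Express617. F0 and Express617 overlapped, and F1 lay between the parents, with a log2 fold change over Express617 of 5.17 ± 0.26 (edgeR adjusted p = 1.7e-17). Cluster_1322 at 12526234 to 12526977 had 104.2, 89.76 and 105.7 CPM in G3D001 and 50.68, 67.38 and 41.17 CPM in F1 at OS15, and at most 0.32 CPM in every F0 and Express617 library. Cluster_2175 at 19725475 to 19725676 had 0 counts in the 3 G3D001 leaf libraries, 5.63, 6.15 and 5.88 CPM in F1 leaves, and 10.12, 8.14 and 9.21 CPM in Express617 leaves, which makes G3D001 at least 134-fold lower (3 counts over the G3D001 group taken as the floor). The F1 lay between the parents without overlap, although its difference from Express617 did not pass the test (edgeR adjusted p = 0.2). Cluster_3108 at 27966886 to 27966944 had 0 counts in Express617 leaves, against 3.10, 3.27 and 2.41 CPM in G3D001 leaves and 2.46, 3.40 and 2.41 CPM in F1 leaves, so that G3D001 and F1 were at least 40.7-fold and 38.2-fold higher (the same floor over the Express617 group). G3D001 and F1 overlapped in it.

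On C01, Cluster_35994 at 37635443 to 37636280 was an ovule cluster of G3D001 and F1. It had 74.59, 115.2 and 120.2 CPM in G3D001 and 91.13, 91.27 and 85.42 CPM in F1 at OS15, against at most 0.11 CPM in any F0 or Express617 library. The Express617 libraries held 2 reads of it in total, so the fold of G3D001 over Express617 was 2586, with a 95% interval from 716 to 21362 that covers counting error only. Cluster_33108 at 9165578 to 9165811 had the reverse pattern, with 0.52, 0.37 and 0.55 CPM in G3D001, 229.8, 170.5 and 168 CPM in F1, 296.4, 328.6 and 268.2 CPM in F0, and 304.7, 317.4 and 368.5 CPM in Express617 at OS15. Here the F1 was below Express617 without overlap (log2 fold change -0.80 ± 0.20, edgeR adjusted p = 0.009), a call that was lost without F1 replicates 2 or 3 or Express617 replicate 3 (edgeR adjusted p = 0.0774 to 0.0886).

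Cluster_32212 at 1348069 to 1348381 on C01 differed from these in that the F1 did not carry the paternal level. It had 119.3, 124.5 and 122.2 CPM in G3D001 leaves, 0.20, 0.32 and 0.43 CPM in F1 leaves, and 0.15, 0.12 and 0.25 CPM in Express617 leaves. F1 and Express617 overlapped, far below G3D001, and F1 over Express617 did not pass the test (edgeR adjusted p = 0.47). At OS15 it had 18.16, 15.13 and 10.31 CPM in G3D001 and at most 0.17 CPM in the other genotypes. Cluster_36493 at 42694700 to 42695093, in contrast, had 36.14, 36.21 and 38.2 CPM in G3D001 leaves, 20.5, 19.74 and 15.58 CPM in F1 leaves and 3 reads in all in Express617 leaves. Cluster_35231 at 30570052 to 30570407 was lower in G3D001 leaves, with 8.43, 6.39 and 7.02 CPM, against 59.04, 37.54 and 39.83 CPM in F1 leaves and 105.2, 99.78 and 99.86 CPM in Express617 leaves. The log2 fold change over Express617 was -3.80 ± 0.26 in G3D001 (edgeR adjusted p = 2.6e-18) and -1.16 ± 0.24 in F1 (edgeR adjusted p = 0.00061), the second of which was lost with total-count scaling (edgeR adjusted p = 0.0815). At OS30 the parents overlapped in this cluster, but with total-count scaling G3D001 was lower there (log2 fold change -1.95, edgeR adjusted p = 7.96e-06).

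**Figure D2:**
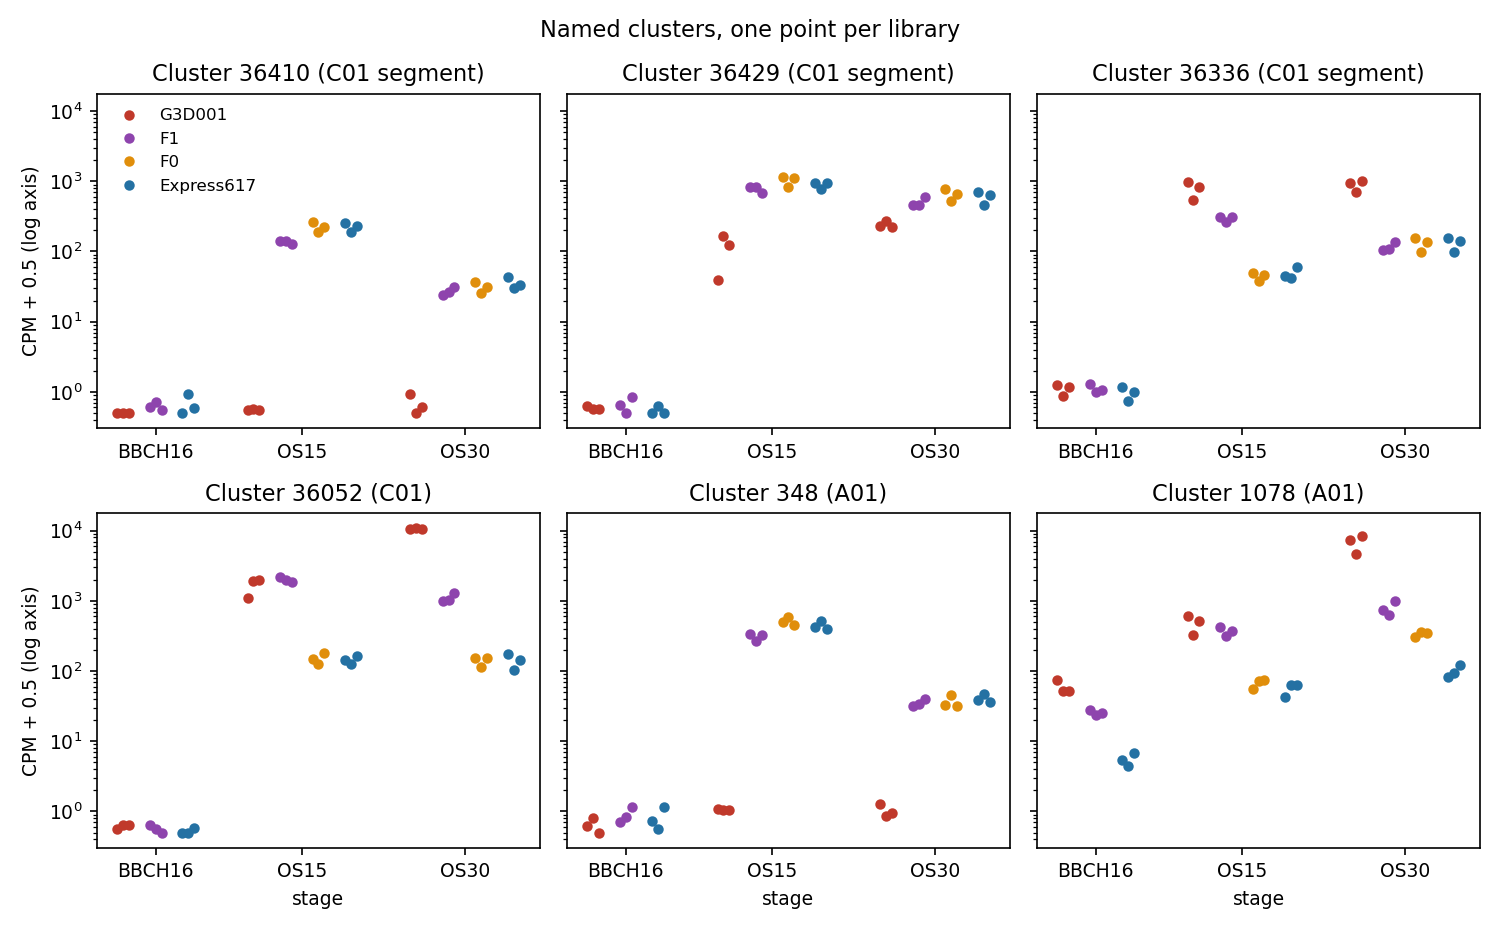
CPM + 0.5 of 6 clusters in each library (points, logarithmic axis) by stage, with genotypes side by side in the order G3D001, F1, F0 and Express617. In the top row, clusters of the C01 bins 82 to 84 are lower (Cluster_36410, Cluster_36429) or higher (Cluster_36336) in G3D001 than in Express617 at OS15; in the bottom row, at OS15, the F1 stands with G3D001 in Cluster_36052 and near Express617 in Cluster_348.

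Levels were next followed along the chromosomes in bins of 500 kb, numbered from the chromosome start, with a cluster placed by its midpoint. The bin level is the median used above, over the clusters of the bin. Among bins with at least 5 clusters, the level of G3D001 lay below all Express617 libraries in 4 of 49 bins of A01 in leaves, 14 of 53 at OS15 and 23 of 60 at OS30, and above them in 14, 11 and 8 bins. On C01 it lay below in 15 of 61, 15 of 59 and 32 of 88 bins, and above in 6, 8 and 15 bins. Such bins were counted on A01 and C01 only. Whether their numbers differ from those of other chromosomes is therefore not known. Bins that lay below at all 3 stages numbered 2 of 44 on A01 and 0 of 50 on C01. Those of A01 were bin 19 (9000001 to 9500000), with differences of -0.10, -1.23 and -0.64 at BBCH16, OS15 and OS30, and bin 34 (16500001 to 17000000), with -0.63, -0.53 and -0.37. Bin 34 had a level of -0.57 in F1 leaves as well.

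The bins with the highest level of G3D001 changed between OS15 and OS30. The lowest bin of C01 did not change. It was bin 84 (41500001 to 42000000) at both stages, at -2.68 at OS15 and -0.995 at OS30. In leaves bin 84 had too few clusters to be counted here. On A01, bin 26 (12500001 to 13000000) reached 2.77 in G3D001 and 2.21 in F1 at OS15, over 6 clusters, but -0.16 in G3D001 and -0.17 in F1 at OS30, over 61 clusters. Bin 57 (28000001 to 28500000) lay at -0.84 in G3D001 and 1.85 in F1 at OS15, over 5 clusters. On C01, bin 15 (7000001 to 7500000) reached 2.09 in G3D001 and 1.85 in F1 at OS15, over 5 clusters, and bin 75 lay at -0.97 in G3D001 and 1.69 in F1, over 6 clusters. At OS30, where 31 to 69 clusters entered the bins named here, bin 49 of C01 had the highest level of G3D001, 0.99, while F1 lay at -0.05. The highest levels of G3D001 at OS15 thus came from bins with few clusters.

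**Figure D3:**
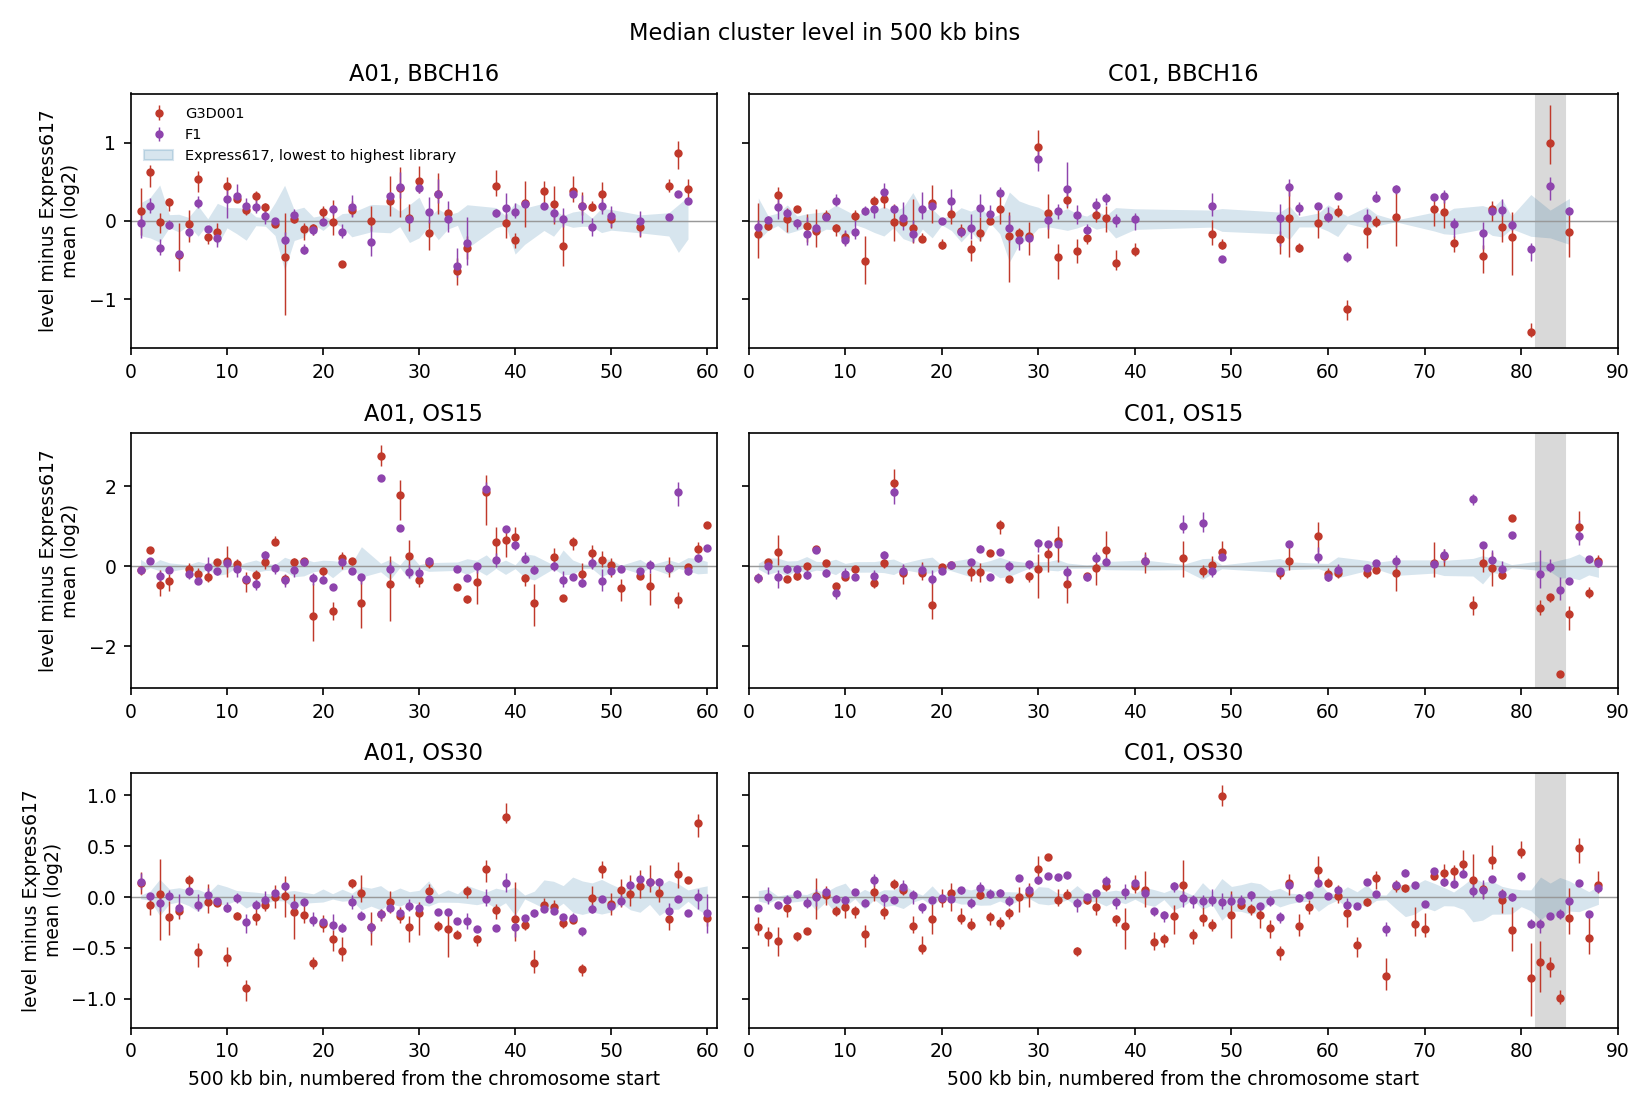
Level of G3D001 and F1 relative to the Express617 mean (log2) in each 500 kb bin with at least 5 clusters along A01 (left) and C01 (right), one row per stage; points are group means, lines run from the lowest to the highest library, the blue band is the range of Express617 libraries and the grey band marks the C01 bins 82 to 84. In the grey band, G3D001 points lie between -2.68 and -0.64 at OS15 and OS30, while in leaves only bin 83 has enough clusters and lies at 1.00.

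Summed counts per bin were also tested with edgeR over the bins of all 19 chromosomes. G3D001 differed from Express617 in leaves in 25 bins of A01 (10 higher, 15 lower) and 43 of C01 (5 higher, 38 lower), or 45.6% of the 149 bins of A01 and C01, against 47.8% of all bins (13.5% higher, 34.4% lower). At OS15 it differed in 30 bins of A01 (50%, 14 higher, 16 lower) and 40 of C01 (44.9%, 16 higher, 24 lower). The share of all bins was 57.8% (31.7% higher, 26.1% lower). At OS30 it differed in 48 bins of A01 (80%) and 63 of C01 (70.8%), against 80.6% of all bins (65.3% higher, 15.3% lower). At OS30, 39 of the A01 calls and 51 of the C01 calls were higher in G3D001, whereas with total-count scaling 9 were higher and 45 lower on A01 and 4 and 78 on C01. In leaves total-count scaling gave 20 higher and 6 lower bins on A01 and 13 and 16 on C01. In sums, a few clusters can decide a bin, as the next bins show.

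In blocks of 10 Mb, C01 of G3D001 stood out at its far end. From 40 Mb to the last cluster of C01 its level was -0.49 in leaves (range over libraries -0.67 to -0.38), -0.87 at OS15 (-1.14 to -0.69) and -0.32 at OS30 (-0.44 to -0.23), below all Express617 libraries at each stage. The other blocks of C01 lay between -0.22 and 0.16 in G3D001 over the stages. The last block is shorter, with 362 clusters against 837 to 1179 in the other blocks of C01. It holds the segment described next, and blocks were computed for A01 and C01 only. The F1 lay at -0.08, -0.13 and -0.09 in the last block and the F0 at -0.13 at OS15 and -0.16 at OS30.

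The study reported large-scale deletions on C01 of G3D001, found with genomic reads of an ovule replicate. It ascribed low gene expression on the deleted segments to them. Near this end of C01 the study marked a segment of differential gene expression in ovules. This segment falls into bins 82 to 84 (40500001 to 42000000), which held 134 clusters. Whether the deletions account for its sRNA levels was not tested. The segment was taken from gene expression in the study and not from the sRNA counts. In leaves its sRNA level was -0.54, -0.58 and -0.59 in the G3D001 libraries, -0.31 to -0.20 in F1 and -0.14 to 0.09 in Express617. At OS15 it was -2.16, -1.68 and -1.63 in G3D001, -0.48 to 0.02 in F1, -0.28 to 0.31 in F0 and -0.12 to 0.10 in Express617. At OS30 it was -0.73, -0.73 and -0.83 in G3D001, -0.25 to -0.14 in F1, -0.43 to -0.17 in F0 and -0.19 to 0.16 in Express617. All 9 G3D001 libraries lay below every Express617 library of their stage.

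Over the stages, the segment was lower by 1.05 in G3D001 than in Express617 on the log2 scale (-1.05, exact permutation test within stages, two-sided, p = 0.00025, the smallest the 8000 groupings allow). Libraries of one genotype and replicate carry the same code at each stage. When those of one code were moved together, p was 0.1 for this difference and for the F1 difference of the segment, the smallest that 20 groupings allow, and 0.2 for the G3D001 difference of C01 as a whole (exact permutation test). The difference was -0.57 in leaves, over 12 clusters, -1.82 at OS15, over 24, and -0.76 at OS30, over 127. The F1 was lower by a smaller amount (-0.25, exact permutation test, p = 0.00375), with 7 of 9 libraries below all Express617 libraries, though not when summed CPM were used (-0.17, exact permutation test, p = 0.1775). The F0 did not pass the test (-0.11, exact permutation test, p = 0.345), with 3 of 6 libraries below and 1 above all Express617 libraries.

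Single clusters of the segment followed the level. In leaves, 52 of its 134 clusters differed between G3D001 and Express617 by edgeR, 8 higher and 44 lower, so that 32.8% were lower, against 10.5% in the rest of C01 (without bins 81 to 85). At OS15 it was 49 of 133, 9 higher and 40 lower (30.1% lower, against 8.77%). At OS30 it was 93 of 134, 24 higher and 69 lower (51.5% lower, against 28.6%). The median log2 fold change in the segment was -0.92, -0.95 and -1.03 at BBCH16, OS15 and OS30, against -0.12, -0.02 and -0.07 in the rest of C01. In F1 against Express617 6, 11 and 23 clusters of the segment were called at BBCH16, OS15 and OS30, or 4.48%, 8.27% and 17.2%, against 4.37%, 6.25% and 19% of all clusters. In F0 0 were called at OS15 (5 at an unadjusted p under 0.05, or 3.73%, against 4.04% of all clusters) and 9 at OS30 (6.72%, against 4.58%). F1 against G3D001 gave 27 clusters (24 higher in F1), 30 (29 higher) and 88 (62 higher) in the segment at the 3 stages, against 6.51%, 6.99% and 52.7% of all clusters (5.31%, 5.22% and 26% higher).

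The 3 bins of the segment and their neighbours were not alike. Bin 84 (41500001 to 42000000) was low in G3D001 at every stage, at -2.07 in leaves, over 4 clusters, -2.68 at OS15, over 10, and -0.995 at OS30, over 43. Its summed counts fell too, with log2 fold changes of -0.88, -3.41 and -1.36 (edgeR adjusted p = 2.7e-05, 8.1e-05 and 9.3e-05). Bin 81, just before the segment, was low too, at -1.42, -1.64 and -0.79. Bin 83 was higher in G3D001 in leaves by the median (1.00, over 5 clusters), although its summed counts were lower (log2 fold change -0.36, edgeR adjusted p = 0.00153), and its level was -0.78 at OS15 and -0.68 at OS30. At OS30 its summed counts were higher in G3D001 (log2 fold change 1.08, edgeR adjusted p = 6.24e-05), but lower with total-count scaling (-0.95). Bin 85 lay at -0.14, -1.19 and -0.21, and its summed counts at OS30 likewise had a log2 fold change of 0.89 (edgeR adjusted p = 0.00183), or -1.16 with total-count scaling. Bin 86 lay at -0.25, 0.99 and 0.49. Bin 87 was low again, at -0.60, over 2 clusters, -0.66, over 6, and -0.40, over 41, with log2 fold changes of its summed counts of -0.66, -2.59 and -0.17 (edgeR adjusted p = 0.000826, 0.000432 and 0.525).

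Bin 82 shows how 1 cluster can decide a sum. Its median level in G3D001 was -1.91, -1.04 and -0.64 at BBCH16, OS15 and OS30, whereas its summed counts had log2 fold changes of -0.95, 3.38 and 1.999 (edgeR adjusted p = 1.2e-05, 1.8e-06 and 1.9e-06). With total-count scaling the fold change at OS30 was -0.02 (edgeR adjusted p = 0.903). Without the most abundant cluster of the bin, the fold changes at OS15 and OS30 were -0.96 and 0.01 (edgeR adjusted p = 0.0131 and 0.965). That cluster, Cluster_36336 at 40976450 to 40977414, had 978.9, 539 and 822.7 CPM in G3D001 at OS15, 308.3, 263.8 and 311 CPM in F1, 48.47, 36.95 and 46.33 CPM in F0, and 44.65, 41.75 and 58.94 CPM in Express617. G3D001 and F1 were both above F0 and Express617 without overlap (log2 fold changes over Express617 4.01 ± 0.23 and 2.60 ± 0.21, edgeR adjusted p = 1.9e-16 and 9.5e-12).

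The other abundant clusters of the segment were lower in G3D001 at OS15. Cluster_36410 at 41720850 to 41722604 had 0.05, 0.06 and 0.06 CPM in G3D001 at OS15, 1 read per library, against 142.4, 142.6 and 129.1 CPM in F1, 264.8, 187.4 and 220.6 CPM in F0, and 252, 191 and 228.3 CPM in Express617. G3D001 was 3893-fold lower than Express617, with a 95% interval from 1332 to 18883 from counting error alone. The F1 lay below all F0 and Express617 libraries (log2 fold change over Express617 -0.70 ± 0.20, edgeR adjusted p = 0.029), a call that was lost without any one of the F1 replicates or without Express617 replicate 1 or 3 (edgeR adjusted p = 0.0917 to 0.166). At OS30 it had 0.45, 0 and 0.11 CPM in G3D001, against 42.24, 29.52 and 32.4 CPM in Express617, with F1 at 23.44 to 31.19 CPM and F0 at 24.99 to 36.21 CPM.

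Its neighbour Cluster_36409 at 41718705 to 41720645 had 0.93, 0.31 and 0.55 CPM in G3D001 at OS15, 13.6, 125.7 and 15.42 CPM in F1, 222.4, 18.76 and 87.76 CPM in F0, and 218.2, 31.18 and 86.28 CPM in Express617. Replicates of all genotypes but G3D001 were far apart in this cluster, and F1, F0 and Express617 overlapped. Its low level in G3D001 was not seen in leaves. There G3D001 did not differ from Express617 with total-count scaling (log2 fold change -0.33 ± 0.39, edgeR adjusted p = 0.639). Cluster_36429 at 41952827 to 41953779 had 38.75, 165.8 and 122.7 CPM in G3D001 at OS15, 820.7, 837.9 and 671.4 CPM in F1, 1149, 831.3 and 1108 CPM in F0, and 958.5, 783.1 and 953.7 CPM in Express617. G3D001 was lower without overlap, by a log2 fold change of -3.04 ± 0.28 at OS15 and -1.31 ± 0.21 at OS30 (edgeR adjusted p = 9.8e-11 and 8.6e-05), but its reads were not gone. Cluster_36358 at 41237214 to 41238053 was lower in G3D001 at OS15 (86.23, 125.6 and 113.5 CPM, against 433.1, 356.9 and 446.1 CPM in Express617) and higher at OS30 (289.1, 369.2 and 277.2 CPM, against 99.27, 65.26 and 91.76 CPM in Express617). With total-count scaling its log2 fold change at OS30 was -0.17 (edgeR adjusted p = 0.441).

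The next question was whether clusters without reads in G3D001 lay in runs along C01. A cluster was eligible if it had at least 10 counts in each Express617 library of the stage, and was counted as lost in G3D001 if its mean CPM was at least 8-fold lower there. On C01, 89 of 884 eligible clusters were lost in leaves (10.1%), 88 of 841 at OS15 (10.5%) and 190 of 4333 at OS30 (4.38%), against 9.74%, 8.69% and 4.68% of eligible clusters of all 19 chromosomes. On A01 it was 62 of 627 (9.89%), 67 of 797 (8.41%) and 181 of 3053 (5.93%). The 15 chromosomes other than A01, C01, A02 and C02 had 7.65%, 7.73% and 4.08%. Both chromosomes were near the share of all 19, which includes C02 with 34.2%, 20.2% and 11.9%. Both lay above the pooled share of the 15 others at each stage, but not above each of these chromosomes. A03, A04, A05 and A07 had higher shares than A01 at each stage. C01 had the highest share of the C chromosomes other than C02, while A04 had more (12%, 13.2% and 9.03%). At OS30 every A chromosome except A10 (3.9%) had a higher share than C01. At OS30 the count rests on the scaling, since 1118 clusters of C01 passed the fold with total-count scaling.

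The mirror count asked which clusters with at least 10 counts in each G3D001 library were lost in Express617. On C01 it gave 23 of 787 in leaves (2.92%), 70 of 806 at OS15 (8.68%) and 152 of 2194 at OS30 (6.93%), against 3.36%, 7.43% and 9.16% over all 19 chromosomes. Reads of every genotype were aligned to the Express617 assembly, so loci present only in G3D001 have no cluster. From sRNA counts alone, a missing locus, a silent locus and reads that do not align to Express617 sequence cannot be told apart.

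In the segment the lost share was higher. In bins 82 to 84, 11 of 30 eligible clusters were lost in G3D001 in leaves (36.7%), 14 of 37 at OS15 (37.8%) and 25 of 128 at OS30 (19.5%), against 9.13%, 9.20% and 3.92% in the rest of C01. At OS30 the count was 67 of 128 with total-count scaling, and at OS15 it was 6 of 11 when at least 50 counts were required. The median CPM ratio of G3D001 to Express617 was 0.556, 0.447 and 0.662 among the clusters not lost, against 0.774, 0.820 and 0.904 among those not lost on C01 as a whole. Of the 17 clusters of the segment that were eligible at all 3 stages, 2 were lost at all 3 (11.8%), against 13 of 425 in the rest of C01 (3.06%).

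Lost clusters did not form long uninterrupted runs. On C01 the longest run of lost clusters among neighbouring eligible clusters was 5 at each stage. At OS15 it lay in the segment, from Cluster_36409 at 41718705 to Cluster_36426 ending at 41936958, with 18 clusters of any count between its ends. The clusters of this run had 0 to 0.93 CPM in the G3D001 libraries of OS15. Besides those given above, Cluster_36426 had 0.21, 0.50 and 0.55 CPM in G3D001, 31, 34.76 and 27.97 CPM in F1, 61.53, 37.63 and 53.57 CPM in F0, and 59.98, 36.88 and 54.22 CPM in Express617. Here as well the F1 lay below every F0 and Express617 library. The longest runs lay elsewhere on C01 at the other stages, from 20805702 to 20915825 in leaves and from 32578403 to 32664054 at OS30. On A01 the longest runs were 3, 2 and 5 clusters, and other chromosomes held longer ones, up to 10 on C02 in leaves, 17 on C03 at OS15 and 8 on C04 at OS30.

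A bin was counted as lost if it had at least 5 eligible clusters and 50% or more of them were lost. In leaves C01 had 4 such bins of 81, namely bin 42 (6 of 10 clusters lost), bins 69 and 70 (3 of 6 and 6 of 12) and bin 82 (4 of 8). Bins 69 and 70 were the only ones next to each other, from 34000001 to 35000000. At OS15 only bin 84 was lost (9 of 13 clusters, 69.2%) of 76 bins, and at OS30 no bin of 88, where bin 84 had the highest share (13 of 41 clusters, 31.7%). A01 had no lost bin at any stage. Over all 19 chromosomes, 46 of 1433 bins were lost in leaves (3.21%), 15 of 1418 at OS15 (1.06%) and 0 of 1532 at OS30 (0%). C02 held 32 and 9 of these in leaves and at OS15, and each chromosome other than C01 and C02 held at most 2. No bin of C01 was lost at more than 1 stage, and a run of lost bins over the segment was not seen in G3D001 at any stage.

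**Figure D4:**
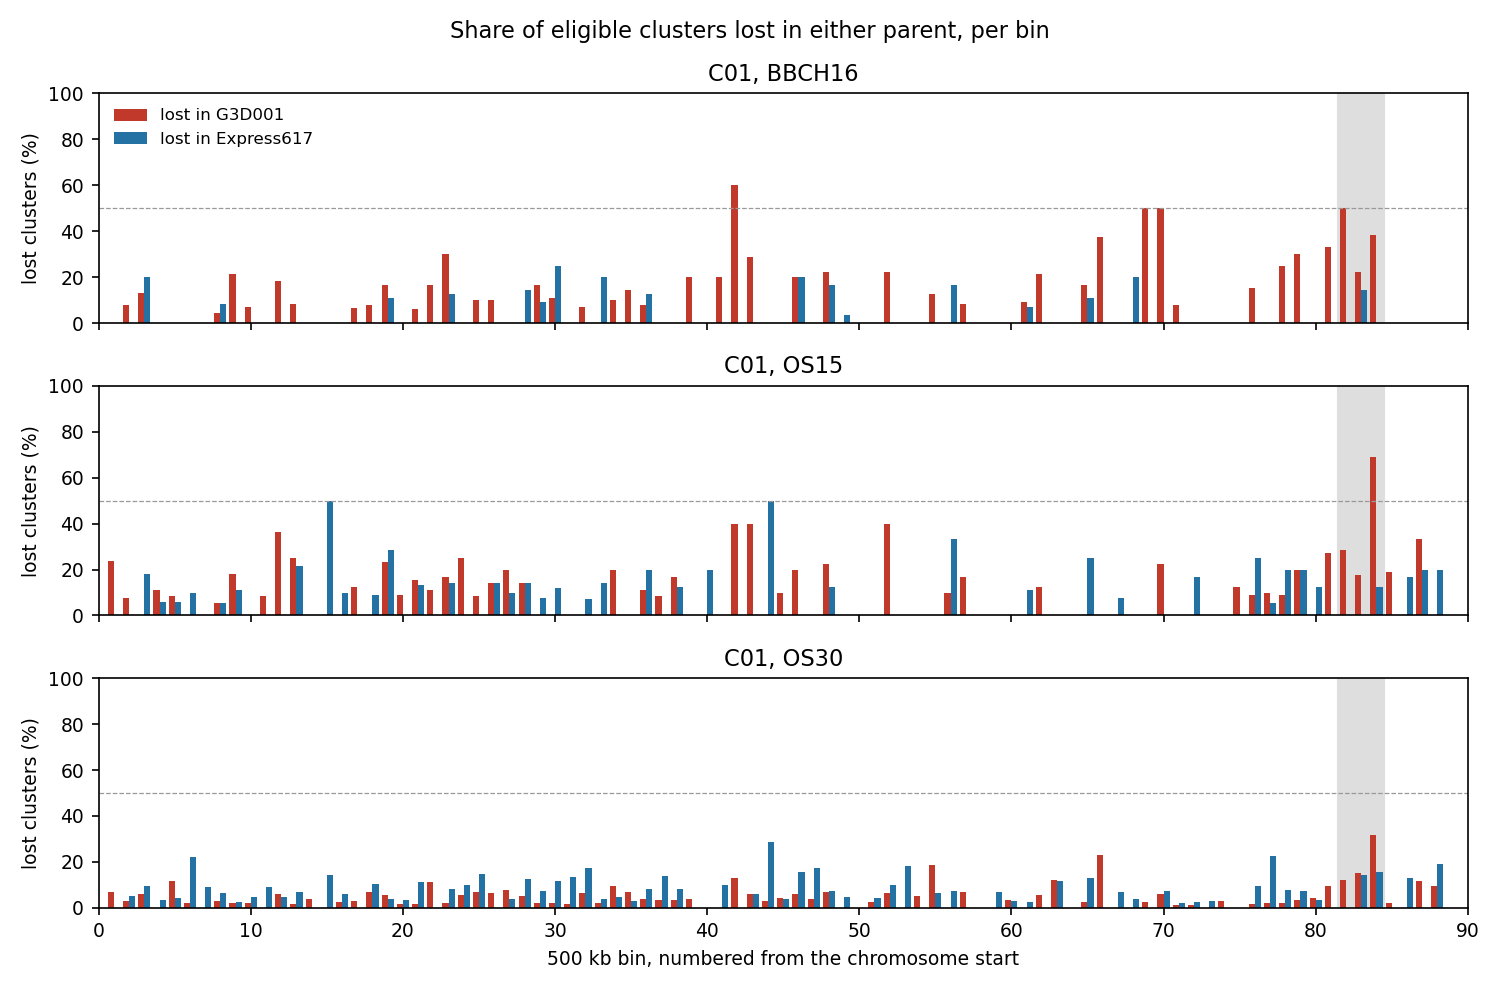
Share of eligible clusters (%) lost in G3D001 (red) and lost in Express617 (blue) in each 500 kb bin of C01 with at least 5 eligible clusters, for BBCH16, OS15 and OS30; the dashed line marks 50% and the grey band the bins 82 to 84. The highest red bar at OS15 and at OS30 is bin 84, with 69.2% and 31.7%, and in leaves it is bin 42 with 60%.

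Clusters lost at one stage were lost at another more often than kept clusters were. Loss at OS30 rests on the scaling, and these shares were computed for A01 and C01 only. Of the C01 clusters lost in leaves and eligible at OS15, 27 of 47 were lost there too (57.4%), which is 27 of 39 of those lost at OS15 and eligible in leaves (69.2%). Among clusters kept in leaves, 12 of 407 were lost at OS15 (2.95%). Between OS15 and OS30, 32 of 84 lost clusters were lost again (38.1%), against 5 of 685 kept ones (0.73%). On A01 it was 22 of 35 between leaves and OS15 (62.9%), against 7 of 352 (1.99%). The stages share no library, although their libraries carry the same codes and the clusters of one chromosome are not independent.

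The hybrids carried lost clusters at an intermediate level or at that of Express617. Over the clusters lost in G3D001, the median CPM ratio to Express617 on C01 was 0.0274 in G3D001 and 0.520 in F1 in leaves, 0.0269 in G3D001, 0.545 in F1 and 0.999 in F0 at OS15, and 0.0280 in G3D001, 0.583 in F1 and 0.591 in F0 at OS30. The low ratio of G3D001 is what defined these clusters, and Express617 both defined them and is the denominator. Over clusters not lost, the ratio of F1 was 0.894, 0.981 and 1.04 at BBCH16, OS15 and OS30, and that of F0 0.946 at OS15 and 0.986 at OS30. On A01, lost clusters had ratios of 0.467, 0.460 and 0.529 in F1, and of 1.03 and 0.604 in F0. Over the clusters lost at each stage, the F0 thus stood at the Express617 level at OS15 and near the F1 at OS30 on both chromosomes. The sets differ between these stages, with 88 and 190 clusters on C01 and 67 and 181 on A01. A change of the F0 over time in the same clusters was not tested. In each F0 library the ratio lay between 0.912 and 1.11 at OS15 on C01 and between 0.510 and 0.666 at OS30.

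In the segment, lost clusters had F1 ratios of 0.704, 0.602 and 0.656 at the 3 stages and F0 ratios of 1.06 at OS15 and 0.577 at OS30, over 11, 14 and 25 clusters. For clusters lost in Express617, with G3D001 as the denominator, the ratios on C01 were 0.448, 0.615 and 0.122 in F1 at BBCH16, OS15 and OS30, and 0.0429 and 0.0745 in F0 at OS15 and OS30. The OS30 ratios divide by G3D001 and so rest on its TMM factors. No test was run on these ratios.

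**Figure D5:**
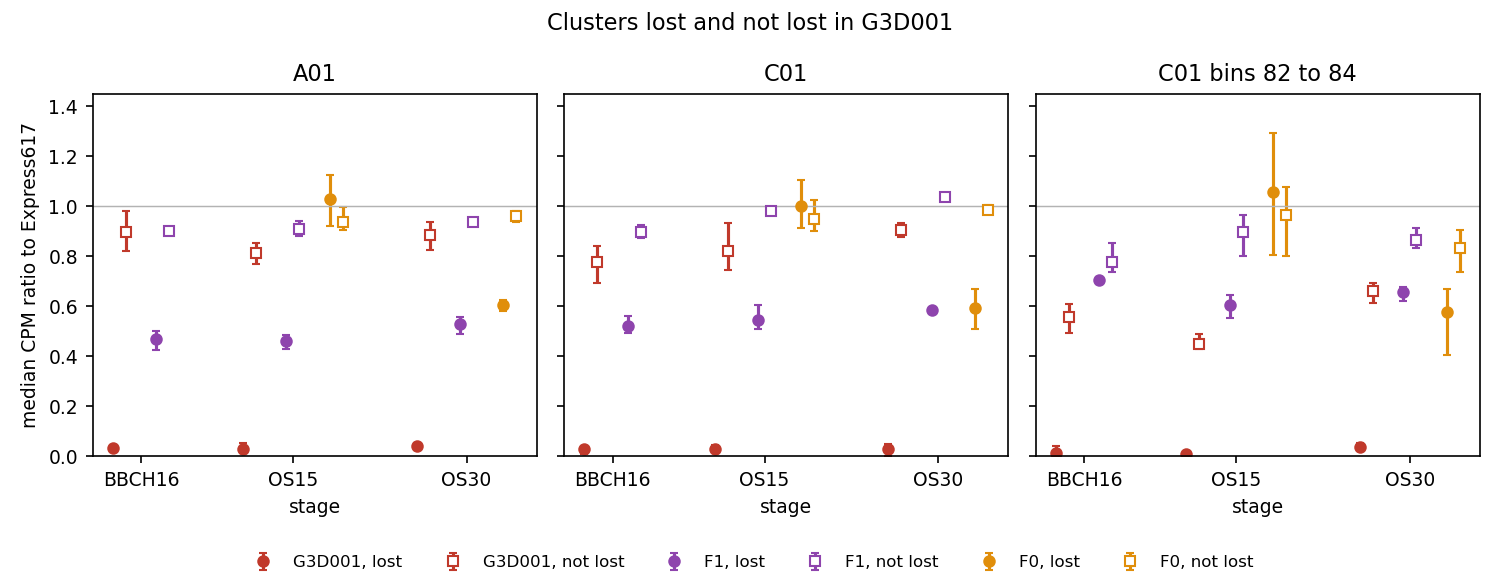
Median CPM ratio to Express617 over clusters lost in G3D001 (filled) and not lost (open), for A01, C01 and the C01 bins 82 to 84, by stage; colours mark G3D001, F1 and F0, and bars run from the lowest to the highest of 3 libraries. Filled F1 points lie between 0.460 and 0.704, while filled F0 points lie near 1 at OS15 and between 0.577 and 0.604 at OS30.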

How the data were processed

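The table deposited by the authors holds raw read counts per sRNA cluster and library, not normalized. Per the study's methods, short reads were removed with seqtk, and the rest were aligned to the Express 617 assembly and counted with ShortStack, with replicates kept apart and clusters not marked as miRNA or siRNA. All 33 library columns were used, while the deposited column of sums over libraries and 10201 entries without a position (2.33% to 10.1% of counts) were not. Levels are TMM-scaled CPM from edgeR 4.0.16 (R 4.3.3). For each stage and hybrid, the 9 libraries of the parents and the hybrid were fitted with edgeR's quasi-likelihood test over all clusters, or over bins of 500 kb of 19 chromosomes, and p-values were adjusted by Benjamini-Hochberg (threshold 0.05). Values for G3D001 against Express617 come from the fits with F1. Chromosome and segment levels were compared by exact permutation within stages, two-sided. Comparisons of 3 with 3 libraries within 1 stage cannot reach a permutation p of 0.05. In the labels, libraries of one genotype and replicate have the same code at all stages, which this permutation treats as separate. Moved together, 3 against 3 codes cannot go below 0.1. The labels share replicate numbers between genotypes, and deviations of same-numbered libraries from their group means correlated by over 0.1 in every pair for G3D001 and Express617 in leaves (0.128 to 0.588) and for F0 and Express617 at OS15 (0.137 to 0.284) and OS30 (0.110 to 0.175), but not for the other combinations with Express617, so blocked values stand beside results whose call they change. In simulated counts, 200 clusters with an expected mean of 20 counts or more were changed 4-fold. Of these, 91.5%, 90.0% and 93.5% were called at BBCH16, OS15 and OS30, over 89489, 90719 and 91048 clusters. Unchanged clusters called numbered 21, 48 and 26. The rates do not extend to clusters with fewer counts. DESeq2 1.42.0, other scalings, filters, bin sizes, a replicate block and leaving out each library were tried as alternatives. Folds against groups at 0 use 3 counts as a floor, and 95% intervals are exact and cover counting error only. Python 3.11.15 with numpy 2.4.6, pandas 2.3.3 and matplotlib 3.10.9 was used.

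Clusters named in the text are those of smallest adjusted p per chromosome, stage and direction between the parents without overlap of their libraries, those of smallest adjusted p between F1 and Express617, the 3 of highest mean CPM on each chromosome, and the 5 of highest Express617 CPM in C01 bins 82 to 84. Cluster_36426 was named after its values were seen, as the end of a run. The members, lists and tests were chosen with earlier results of these data known. Replicates are pools of plants, and p-values measure the spread between these pools.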

Additional observations from a re-analysis of the deposited data

Results flagged for a closer look

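The levels of A01 in G3D001 and in F1 lay on opposite sides of Express617 at BBCH16 and OS30, although the difference between the stages did not pass after adjustment, and both comparisons share the Express617 libraries. In G3D001 the level was 0.13 at BBCH16 and -0.13 at OS30, a difference of 0.254 (exact permutation test, two-sided, p = 0.005, the smallest that 400 groupings allow, and 0.0525 after adjustment over 21 such comparisons), with every library on opposite sides. In F1 it was 0.07 and -0.09, a difference of 0.165 (exact permutation test, p = 0.005, adjusted 0.0525).

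Cluster_34691 on C01 was lower in G3D001 than in Express617 in leaves and higher at OS30, so that the log2 fold changes differed by -1.77, a difference that was not tested. With total-count scaling the OS30 change was -0.75 and the directions were not opposite. Cluster_36358 in the C01 segment was lower in G3D001 at OS15 and higher at OS30, with a difference of -3.79 between the log2 fold changes that was not tested either. Its OS30 change was -0.17 with total-count scaling.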

How the results depend on the processing

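Of the main results under their alternatives, 365 values stayed the same and 28 counts moved by over 1.5 times. A further 6 reversed, 8 newly passed the threshold and 7 no longer did. A count or percentage stayed the same if within 1.5 times, and a level if it kept its sign and side of the threshold. Counts were judged by their total only. Their split into higher and lower calls could still turn, as it did between the parents at OS30 with total-count scaling. The cause was not tested in any case. For F1 against Express617, leaf calls on A01 and C01 numbered 944 with total-count scaling and 206 with DESeq2, against 324, and OS30 calls numbered 822 when a log2 fold change of 1 or more in either direction was also required, against 1506. For F0 at OS30, 1 fit of all libraries of the stage gave 634, against 384. In leaves that fit holds the same 9 libraries and gives no other value. For A01, the level of G3D001 minus Express617 was -0.0499 without a count minimum (exact permutation test, p = 0.022) and 0.02 from summed CPM, and that of F1 was 0.0148 without centring on the rest of the genome and -0.0427 without a count minimum (exact permutation test, p = 0.002). For C01, that of G3D001 was -0.0466 with a mean count of 50 or more and -0.155 from summed CPM, and that of F1 was 0.0889 without centring (exact permutation test, p = 0.00125) and -0.0538 from summed CPM. In the C01 segment, F1 was at -0.17 from summed CPM and F0 at -0.16 without a count minimum (exact permutation test, p = 0.03). Lost clusters of C01 numbered 143, 144 and 460 at BBCH16, OS15 and OS30 with a 4-fold limit, 9, 29 and 120 with at least 50 counts, and 1118 at OS30 with total-count scaling. With total-count scaling, the OS30 log2 fold changes of G3D001 were -0.0155 for Cluster_32059, -0.75 for Cluster_34691 and -0.17 for Cluster_36358. Depth limits leaves and OS15 most, where the median cluster is below 1 CPM.

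Leaving out 1 library gave 1038 to 1263, 1081 to 1532 and 4057 to 4499 calls for G3D001 at BBCH16, OS15 and OS30, 198 to 359, 312 to 627 and 909 to 1985 for F1, and 0 to 5 and 139 to 631 for F0 at OS15 and OS30. Called bins ranged over 36.9% to 46.3%, 37.6% to 55.0% and 71.1% to 77.9%, and lost clusters over 92 to 117, 79 to 114 and 182 to 218. Levels ranged for A01 over -0.04 to -0.01 in G3D001, -0.04 to -0.03 in F1 and -0.05 to -0.02 in F0, for C01 over -0.10 to -0.07 in G3D001, 0.03 to 0.06 in F1 and -0.04 to 0.004 in F0, and for the segment over -1.08 to -0.90, -0.31 to -0.17 and -0.19 to -0.04. The F0 level of C01 changed sign without F0 replicate 2 of OS15 (0.00346), Express617 replicate 1 of OS15 (0.00396) or Express617 replicate 1 of OS30 (0.00193), and the F1 level of C01 passed the threshold without Express617 replicate 1 of BBCH16 (0.0502), OS15 (0.0557) or OS30 (0.0489).

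With libraries of one code moved together over the stages, an alternative chosen after seeing the data, the called levels kept their values (G3D001 of C01 -0.0813, G3D001 and F1 of the segment -1.05 and -0.251) at p = 0.2, 0.1 and 0.1 (exact permutation test, 0.1 being the smallest p). With the replicate block, F0 at OS15 had 2 calls, the F0 level of A01 was -0.0371 (exact permutation test, p = 0.03125) and the G3D001 level of C01 was -0.0813 (exact permutation test, p = 0.0664). Cluster_36409 passed for F1 at OS15 (log2 fold change -1.42, edgeR adjusted p = 0.00291). The block changed no other call among the results tested with it, and moved no other count by over 1.5 times.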
